A study of Mus musculus with 9 samples.

Results

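Elastic fibers are the part of the extracellular matrix that lets a tissue recoil after it is stretched. They consist of a core of cross-linked elastin laid onto a scaffold of microfibrils, whose backbone is fibrillin. Fibulins, microfibril-associated glycoproteins and EMILIN-1 join the core to the scaffold and to cells, and the microfibrils also store latent TGF-beta. The set examined holds 10 of the 52780 genes in the deposited count table. They were chosen by name, as elastin (Eln), the fibrillins (Fbn1 and Fbn2), microfibril-associated protein 5 (Mfap5), the short fibulins (Fbln5, Efemp2 and Efemp1), the long fibulins (Fbln1 and Fbln2) and Emilin1. All 10 were found in the table, and 9 of them, all but Fbn2, passed the filter on low counts and were tested.

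RNA came from C2C12 cells, immortal mouse myoblasts that form multinucleated fibers once serum is lowered, collected at day 4 of differentiation. The 9 libraries fell into 3 conditions of 3. In the knockdown libraries, si mH2A1.1 and si mH2A1.2, cells had received siRNA against the macroH2A1.1 or macroH2A1.2 splice isoform of the histone variant macroH2A1, at 10 nM, before and during differentiation. The control libraries are labelled wild type and are called si Ctrl here, the name the study uses; their labels do not say which siRNA they received. All libraries share the cell line, medium and day, and the study describes the 3 libraries of a condition as biological replicates, without saying in the sources used here how the cultures were separated. The comparisons ask how loss of either isoform changed expression in myotubes.

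Library totals ranged from 36924252 to 42223108 counts, with 3.94% to 5.31% of them mitochondrial. H2afy encodes both isoforms, and its counts do not separate them. H2afy was at 56.3, 62.4 and 61.0 CPM (counts scaled to library size, corrected by TMM) in si Ctrl, at 38.9, 30.01 and 30.9 CPM in si mH2A1.1 and at 46.8, 47.2 and 43.2 CPM in si mH2A1.2. H2afy fell with si mH2A1.1 (log2 fold change -0.85 ± 0.11 SE, adjusted p = 0.00331, edgeR). In si mH2A1.2, H2afy changed by -0.39 ± 0.11 on the log2 scale (adjusted p = 0.108), although no library overlapped with si Ctrl.

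The sharpest contrast was between the knockdowns. Of the 9 tested genes, 8 differed between si mH2A1.1 and si mH2A1.2 at an adjusted p below 0.05, while 22.5% of all 19545 tested genes did. Fbln5, Mfap5, Fbn1, Emilin1, Fbln2, Efemp1 and Efemp2 were lower with si mH2A1.1, by 10.8-fold for Fbln5 down to 1.31-fold for Efemp2, and Eln alone was higher, by 2.62-fold. That is 7 lower and 1 higher, where 10.5% of all tested genes were lower and 12% higher. Fbln1 was the tested gene without a call. The median log2 difference of the 9 genes was -1.50, and that of all tested genes was -0.01.

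The promoters of 3 genes that were lower with si mH2A1.1 than with si mH2A1.2 are shown, Fbln5 with the largest fold, Emilin1 with the smallest adjusted p and Fbn1 with the most counts. Each run holds the 250 bases before and the 50 after a RefSeq start in GRCm38.p6, read 5′ to 3′ on the gene's strand. Capitals mark E-boxes (CANNTG), the motif bound by myogenic factors of the MyoD family.
Fbn1, chr2:125506389-125506688, minus strand: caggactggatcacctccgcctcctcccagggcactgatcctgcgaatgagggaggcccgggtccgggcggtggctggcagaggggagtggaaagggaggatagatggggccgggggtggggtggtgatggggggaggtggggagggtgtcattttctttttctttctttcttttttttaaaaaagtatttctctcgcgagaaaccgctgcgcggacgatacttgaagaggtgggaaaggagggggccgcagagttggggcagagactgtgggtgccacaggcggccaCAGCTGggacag
Fbln5, chr12:101819070-101819369, minus strand: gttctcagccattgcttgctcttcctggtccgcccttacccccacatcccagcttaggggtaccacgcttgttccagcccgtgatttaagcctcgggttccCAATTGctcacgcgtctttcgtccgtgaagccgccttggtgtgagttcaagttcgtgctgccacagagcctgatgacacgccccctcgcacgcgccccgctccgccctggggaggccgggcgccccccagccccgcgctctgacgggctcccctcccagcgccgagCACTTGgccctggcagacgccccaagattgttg
Emilin1, chr5:30913536-30913835, plus strand: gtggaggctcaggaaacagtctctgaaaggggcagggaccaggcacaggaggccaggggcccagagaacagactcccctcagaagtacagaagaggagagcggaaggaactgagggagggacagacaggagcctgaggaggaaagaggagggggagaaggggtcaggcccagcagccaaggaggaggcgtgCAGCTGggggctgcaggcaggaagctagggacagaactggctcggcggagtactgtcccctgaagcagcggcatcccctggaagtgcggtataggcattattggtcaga

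The Fbn1 and Emilin1 windows each held 1 E-box, and the Fbln5 window held 2. RefSeq lists 11 promoters for 7 of the 10 genes, among them 2 starts for Fbln5, and the second Fbln5 window held no E-box. Eln, Mfap5 and Fbn2 have no promoter in the table used. On either strand, an E-box was in 72.3% of all 32851 mouse promoters of the same length, so its presence does not set these genes apart. The SMAD box CAGAC, a motif of TGF-beta signalling, occurred 2 times for Emilin1, 1 time for Fbln5 and not at all for Fbn1, and was in 49.6% of all promoters. GGGCGG, the Sp1 box, was in 35.7% of all promoters and the AP-1 site TGANTCA in 7.81%, and these motifs may overlap each other. The AP-1 letters were found in 1 of the 11 windows, that of Efemp1.

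The elastin core and the microfibril backbone behaved differently. Eln (ENSMUSG00000029675; chromosome 5, 134702593 to 134747323, minus strand, GRCm38) was barely expressed, with 14 to 64 counts a library. Eln was at 0.589, 0.506 and 0.645 CPM in replicates 1 to 3 of si Ctrl, at 1.31, 1.04 and 1.47 CPM in si mH2A1.1 and at 0.661, 0.418 and 0.376 CPM in si mH2A1.2. All 3 si mH2A1.1 libraries lay above every other library, and the other conditions overlapped. Eln rose 2.19-fold with si mH2A1.1 over si Ctrl (log2 fold change 1.13 ± 0.28, adjusted p = 0.0315, edgeR). The call was lost without any 1 of the 3 si Ctrl libraries or without si mH2A1.1 replicate 1 or 3, with adjusted p up to 0.113. For si mH2A1.2, the Eln log2 fold change over si Ctrl was -0.26 ± 0.30 (adjusted p = 0.744). Between the knockdowns, Eln was 2.62-fold higher with si mH2A1.1 (log2 1.39 ± 0.29, adjusted p = 0.00804).

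Fbn1 (ENSMUSG00000027204; chromosome 2, 125300594 to 125507993, minus strand) encodes fibrillin-1, the main fibrillin of adult tissue. Fbn1 was at 845, 797 and 823 CPM in si Ctrl, at 328, 864 and 507 CPM in si mH2A1.1 and at 2597, 1680 and 1501 CPM in si mH2A1.2. The si mH2A1.2 libraries all exceeded the rest, and in si mH2A1.1 replicate 2 lay above si Ctrl while replicates 1 and 3 lay below. Over si Ctrl, Fbn1 had a log2 fold change of -0.54 ± 0.31 in si mH2A1.1 (adjusted p = 0.278) and of 1.23 ± 0.31 in si mH2A1.2 (adjusted p = 0.0771). DESeq2 called the second of these (adjusted p = 0.00183), as did edgeR without the filter on low counts or with only the conditions compared. Directly, Fbn1 was 3.40-fold lower with si mH2A1.1 than with si mH2A1.2 (log2 -1.77 ± 0.32, adjusted p = 0.00444). Without si mH2A1.1 replicate 2 the fall of Fbn1 from si Ctrl passed the test, with an adjusted p of 0.0347.

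Fbn2 encodes fibrillin-2, best known from embryonic tissue. Fbn2 had 3, 0 and 3 counts in si Ctrl, 1, 1 and 6 in si mH2A1.1 and 3, 1 and 3 in si mH2A1.2. Only 1 of the 9 libraries rose above 3 counts, the smallest amount taken as distinct from 0, so no fold change is given. Fbn2 made up 0.00643% of the fibrillin counts in si Ctrl (exact 95% interval 0.00236% to 0.0140%), 0.0114% in si mH2A1.1 (0.00492% to 0.0224%) and 0.00326% in si mH2A1.2 (0.00131% to 0.00672%). These intervals cover counting error only, and fibrillin mRNA was almost entirely Fbn1 in each condition. A test of the ratio was not run on so few counts.

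Mfap5 (ENSMUSG00000030116; chromosome 6, 122505845 to 122529290, plus strand) encodes MAGP2, a small glycoprotein that binds fibrillin. Mfap5 was at 1.29, 1.84 and 1.96 CPM in si Ctrl, at 0.864, 1.38 and 1.57 CPM in si mH2A1.1 and at 7.71, 5.22 and 3.92 CPM in si mH2A1.2. All si mH2A1.2 libraries were above the rest, and si Ctrl and si mH2A1.1 overlapped. Mfap5 rose 3.31-fold with si mH2A1.2 over si Ctrl (log2 1.73 ± 0.31, adjusted p = 0.0239). The call was lost without any 1 of the 3 si Ctrl libraries or without si mH2A1.2 replicate 1 or 2, with adjusted p up to 0.0960. With si mH2A1.1 the log2 fold change of Mfap5 was -0.41 ± 0.32 (adjusted p = 0.417). Mfap5 was 4.402-fold lower with si mH2A1.1 than with si mH2A1.2 (log2 -2.14 ± 0.31, adjusted p = 0.00162).

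**Figure D1:**
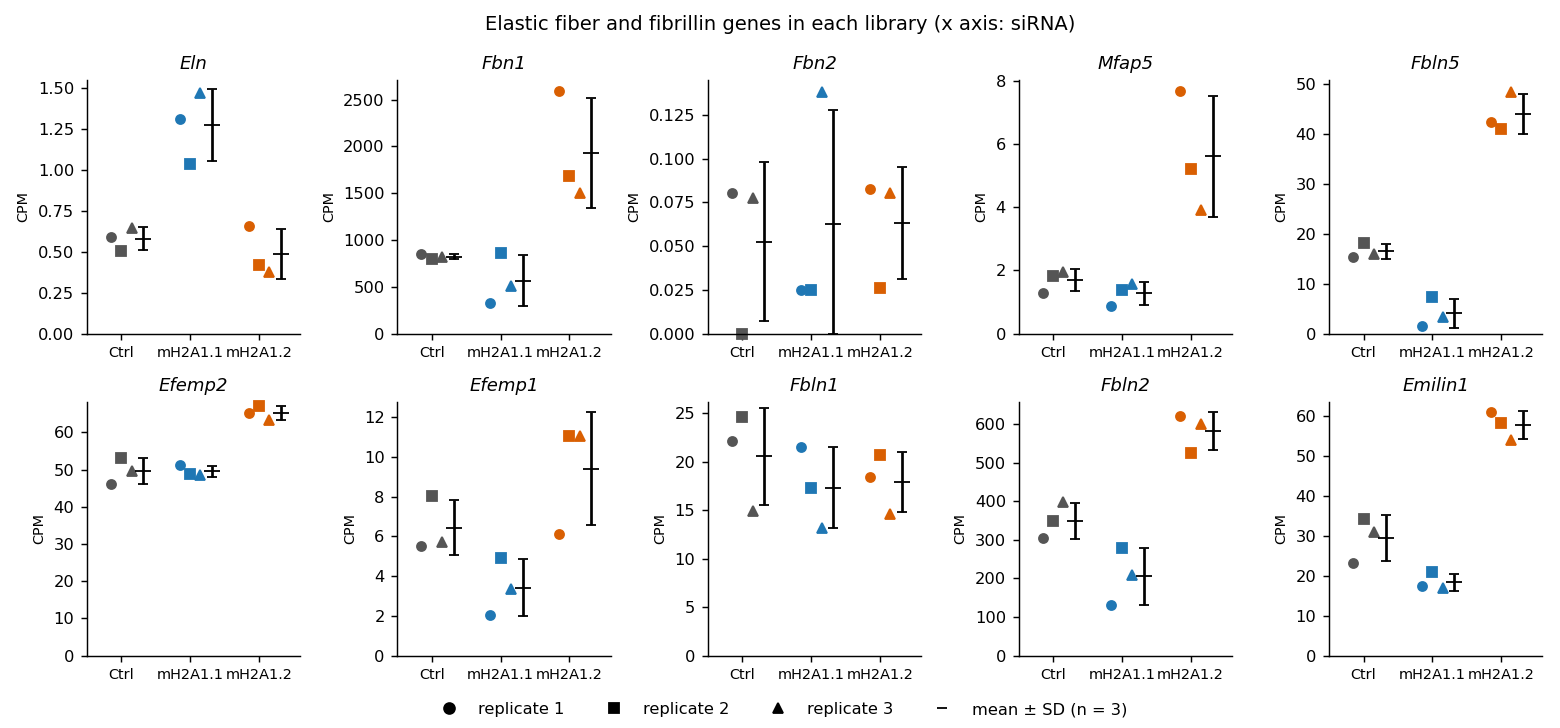
TMM-scaled CPM (y axis, linear from 0) of the 10 genes in the 9 libraries, by siRNA (x axis). Points are libraries with a shape for each replicate number, and bars give the mean ± SD of 3. Fbln5, Emilin1 and Fbln2 form 3 separate levels, Eln is highest with si mH2A1.1, and Fbln1 overlaps throughout.

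Among the short fibulins, Fbln5 separated the conditions most. Fbln5 (ENSMUSG00000021186; chromosome 12, 101746565 to 101819055, minus strand) encodes fibulin-5, which binds elastin, lysyl oxidase-like enzymes and integrins and is required for elastic fiber assembly. Fbln5 was at 15.5, 18.2 and 15.9 CPM in si Ctrl, at 1.56, 7.29 and 3.41 CPM in si mH2A1.1 and at 42.4, 41.0 and 48.6 CPM in si mH2A1.2. No library of one condition overlapped with another. Fbln5 fell 4.04-fold with si mH2A1.1 (log2 -2.02 ± 0.39, adjusted p = 0.0138), a call lost without si Ctrl replicate 2 or si mH2A1.1 replicate 3 (adjusted p up to 0.0632). For Fbln5, si mH2A1.2 gave a log2 fold change of 1.41 ± 0.37, short of the threshold without a replicate term (adjusted p = 0.0851). This change passed with the replicate number as a block (adjusted p = 0.0448), without the filter on low counts or with only the conditions compared. DESeq2 did not call it (adjusted p = 0.0642). The direct difference was the largest of the 9 genes, 10.8-fold lower with si mH2A1.1 (log2 -3.43 ± 0.41, adjusted p = 0.000598).

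Efemp2 (ENSMUSG00000024909; chromosome 19, 5473954 to 5482517, plus strand) encodes fibulin-4, which tethers lysyl oxidase to tropoelastin. Efemp2 was at 46.2, 53.2 and 49.7 CPM in si Ctrl, at 51.3, 48.8 and 48.7 CPM in si mH2A1.1 and at 65.1, 67.1 and 63.4 CPM in si mH2A1.2. Only si mH2A1.2 stood apart, and si Ctrl and si mH2A1.1 overlapped. Efemp2 rose 1.31-fold with si mH2A1.2 (log2 0.39 ± 0.08, adjusted p = 0.0417), but the call held in 1 of 9 analyses that left out a library, with adjusted p from 0.0386 to 0.160. It was also lost without the filter on low counts and with only the conditions compared. Against si Ctrl, si mH2A1.1 gave an Efemp2 log2 fold change of -0.0038 ± 0.08 (adjusted p = 0.982), which turned positive in 3 of these analyses. Between the knockdowns Efemp2 was 1.31-fold lower with si mH2A1.1 (log2 -0.40 ± 0.08, adjusted p = 0.00876). Mus81, on the opposite strand, overlaps Efemp2 exons and had 816 to 1070 counts a library, and the sources used here do not say whether reads were counted by strand. Genes overlapping Eln and Fbn1 had at most 2 and 7 counts.

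Efemp1 (ENSMUSG00000020467; chromosome 11, 28853204 to 28926743, plus strand) encodes fibulin-3. Efemp1 was at 5.54, 8.02 and 5.72 CPM in si Ctrl, at 2.03, 4.89 and 3.36 CPM in si mH2A1.1 and at 6.11, 11.06 and 11.04 CPM in si mH2A1.2. The si mH2A1.1 libraries were below all others, and replicate 1 of si mH2A1.2 lay within si Ctrl. Its log2 fold change over si Ctrl was -0.91 ± 0.33 with si mH2A1.1 (adjusted p = 0.0960) and 0.55 ± 0.32 with si mH2A1.2 (adjusted p = 0.448). DESeq2 called the first of these (adjusted p = 0.0394). Efemp1 was 2.74-fold lower with si mH2A1.1 than with si mH2A1.2 (log2 -1.46 ± 0.33, adjusted p = 0.0119).

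The long fibulins parted. Fbln1 (ENSMUSG00000006369; chromosome 15, 85205949 to 85286535, plus strand) encodes fibulin-1, which binds fibronectin and elastic fibers. Fbln1 was at 22.1, 24.6 and 14.95 CPM in si Ctrl, at 21.5, 17.3 and 13.2 CPM in si mH2A1.1 and at 18.4, 20.7 and 14.6 CPM in si mH2A1.2. The 3 conditions overlapped, with replicate 3 the lowest in each. Its log2 fold changes over si Ctrl were -0.25 ± 0.22 with si mH2A1.1 (adjusted p = 0.493) and -0.20 ± 0.22 with si mH2A1.2 (adjusted p = 0.738). The direct log2 difference of Fbln1 was -0.048 ± 0.22 (adjusted p = 0.903), and its sign changed when si mH2A1.1 replicate 3 or si mH2A1.2 replicate 2 was left out.

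Fbln2 (ENSMUSG00000064080; chromosome 6, 91212455 to 91272540, plus strand) encodes fibulin-2, a larger relative that binds fibrillin-1 and basement membrane proteins. Fbln2 was at 304, 348 and 397 CPM in si Ctrl, at 131, 278 and 208 CPM in si mH2A1.1 and at 620, 525 and 600 CPM in si mH2A1.2. The 3 conditions did not overlap. Fbln2 had log2 fold changes over si Ctrl of -0.77 ± 0.23 in si mH2A1.1 (adjusted p = 0.0554) and 0.73 ± 0.23 with si mH2A1.2 (adjusted p = 0.136). DESeq2 called both, with adjusted p of 0.0104 and 0.0312, and edgeR called the first without the filter and the second with only the conditions compared. Directly, it was 2.83-fold lower with si mH2A1.1 (log2 -1.50 ± 0.23, adjusted p = 0.00204).

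Emilin1 (ENSMUSG00000029163; chromosome 5, 30913402 to 30921277, plus strand) encodes EMILIN-1, a glycoprotein at the interface of elastin and microfibrils that restrains TGF-beta processing. Emilin1 was at 23.2, 34.4 and 31.0 CPM in si Ctrl, at 17.6, 20.9 and 16.8 CPM in si mH2A1.1 and at 61.1, 58.2 and 54.0 CPM in si mH2A1.2. The 3 conditions did not overlap. Emilin1 was the 1 gene of the set called in every comparison. It fell 1.60-fold with si mH2A1.1 (log2 -0.68 ± 0.15, adjusted p = 0.0197) and rose 1.96-fold with si mH2A1.2 (log2 0.97 ± 0.15, adjusted p = 0.0138). Emilin1 was 3.13-fold lower with si mH2A1.1 than with si mH2A1.2 (log2 -1.65 ± 0.15, adjusted p = 0.000199). The fall was lost without si Ctrl replicate 2 or 3 or si mH2A1.1 replicate 1 or 3 (adjusted p up to 0.0789), and the rise without si Ctrl replicate 3 or si mH2A1.2 replicate 1 or 2 (adjusted p up to 0.0563).

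Against si Ctrl, each knockdown called 3 of the 9 genes in the model without a replicate term. With si mH2A1.1 these were Fbln5 and Emilin1, lower, and Eln, higher, where 11.1% of all tested genes were called, 4.93% lower and 6.18% higher. With si mH2A1.2, Mfap5, Efemp2 and Emilin1 were higher and none was lower, where 2.35% of all tested genes were called, 1.37% higher and 0.982% lower. Replicate numbers paired the samples of this last comparison. With the number as a block, Fbln5 was added, for 4 of the 9 genes, all higher. The block called 1005 of all 19545 tested genes in place of 460. The median log2 fold change of the 9 genes was -0.54 in si mH2A1.1 and 0.73 in si mH2A1.2. These comparisons share the si Ctrl libraries. Under stricter limits, with the adjusted p under 0.01 and a log2 change of 0.8 or more in either direction, neither knockdown called any of the 9 genes against si Ctrl (1.8% and 0.179% of all tested genes). At an unadjusted p below 0.05 in edgeR, 5 of the 9 passed after macroH2A1.1 knockdown and 6 after macroH2A1.2 knockdown, where 29.6% and 15.9% of all tested genes did. DESeq2 called 5 in each comparison at an adjusted p below 0.05, where it called 16.7% and 5.9% of the genes it tested. The direct comparison kept 6 of its 8 under these stricter limits, where 6.38% of all tested genes passed.

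**Figure D2:**
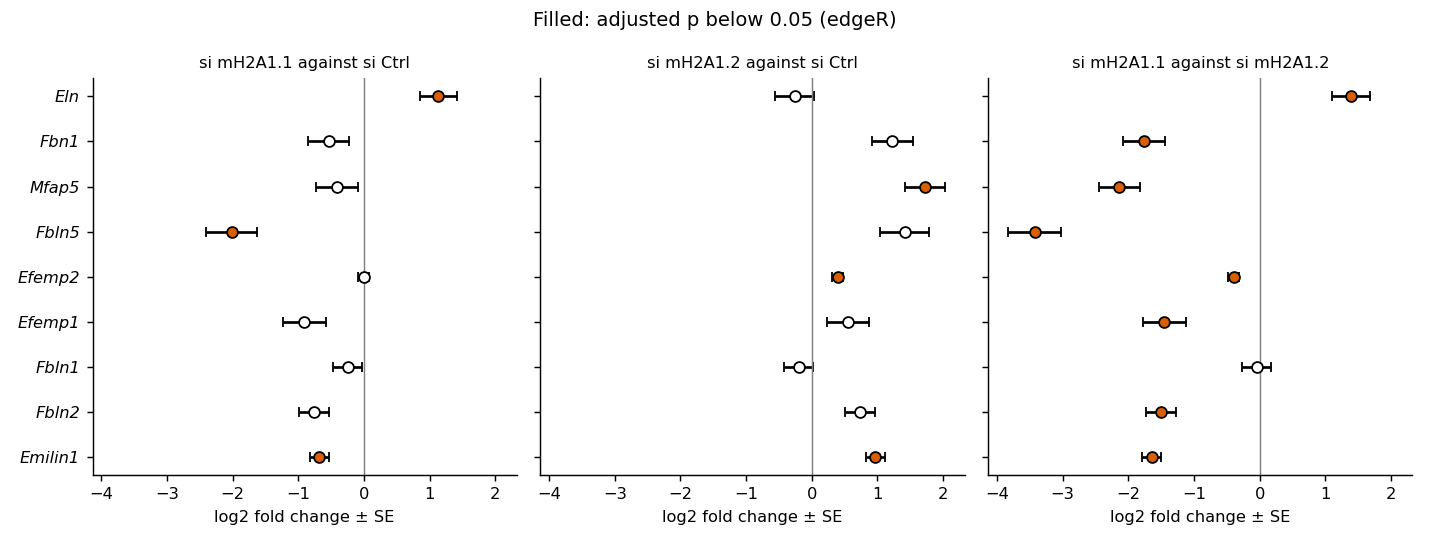
Log2 fold change ± SE from edgeR (x axis) of the 9 tested genes (y axis) in each comparison, with filled points at an adjusted p below 0.05. With si mH2A1.1 against si mH2A1.2, 7 filled points lie below 0 and Eln lies above.

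All 8 direct calls were kept in each of the 9 analyses that left out a library, and the highest adjusted p among them was 0.0488, for Efemp1. The calls against si Ctrl changed more often with the libraries used. Replicate 2 was the highest of the 3 si mH2A1.1 libraries for Fbn1, Fbln5, Efemp1, Fbln2 and Emilin1. Without it, Fbn1, Efemp1 (adjusted p = 0.0348) and Fbln2 (adjusted p = 0.0128) were also lower than si Ctrl, for 6 calls in place of 3, while the calls over all genes went from 2171 to 2928. With si mH2A1.2, leaving out si mH2A1.1 replicate 1 gave 6 calls, against 544 in place of 460 over all genes, and added Fbn1, Fbln5 and Fbln2 (adjusted p = 0.0353).

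Levels per length of exon put the genes on 1 scale. In si Ctrl, Fbn1 was at 67.7 ± 2.00 CPM per kb of exon (SD, n = 3) and Fbln2 at 54.9 ± 7.33, both among the top 5% of tested genes. Efemp2 followed at 13.1 ± 0.918, Emilin1 at 5.98 ± 1.16, Fbln1 at 4.71 ± 1.15, Efemp1 at 3.16 ± 0.678 and Fbln5 at 2.39 ± 0.215 CPM per kb. Mfap5 (0.472 ± 0.1002), Eln (0.0716 ± 0.00859) and Fbn2 (0.00398 ± 0.00345) closed the order. Emilin1 and Fbln1 overlapped, as did Fbln1 and Efemp1, and the other neighbours did not. With the longest transcript as length, Fbln2 (73.1) stood above Fbn1 (68.6 CPM per kb), so the order of these genes depends on the length used. At that length, Efemp1 (2.72 to 3.94 CPM per kb) and Fbln5 (2.65 to 3.12) overlapped in si Ctrl. Eln was above 4.71% of tested genes, Fbln5 above 46.6% and Fbn1 above 96.4%.

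The level of Fbln5 changed enough to alter its neighbours in this order. In si mH2A1.2, Fbln5 reached 6.37 ± 0.581 CPM per kb and lay above every library of Efemp1 (4.62 ± 1.40) and Fbln1 (4.10 ± 0.703). In si mH2A1.1 it was at 0.591 ± 0.423 CPM per kb and overlapped with Efemp1 (1.68 ± 0.704) and Mfap5 (0.354 ± 0.102). Fbn1 stayed first in both, although in si mH2A1.1 it overlapped with Fbln2 (46.7 ± 22.5 and 32.3 ± 11.5 CPM per kb). Eln ranked ninth throughout, above Fbn2.

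**Figure D3:**
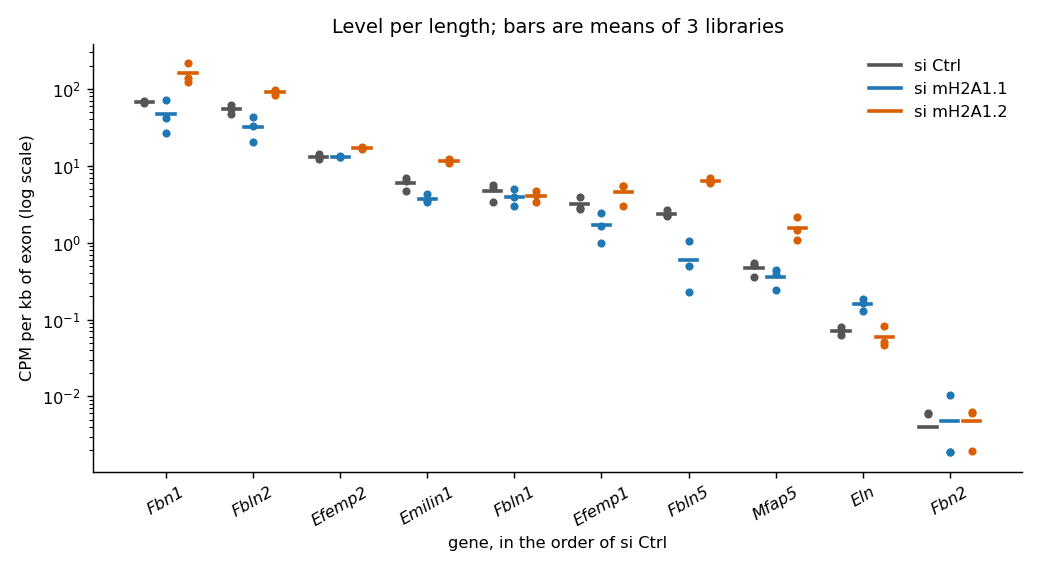
CPM per kb of exon (y axis, log scale) for the 10 genes (x axis, ordered by si Ctrl) in each condition. Points are libraries, bars are means of 3, and a library with no Fbn2 count has no point. Fbn1 leads in each condition, and Fbln5 moves furthest between conditions.

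Counts relative to Fbn1 in the same library do not depend on library size and are given as a description, chosen after values were seen. Per 1000 Fbn1 counts, Fbln5 had 18.3, 22.9 and 19.3 in si Ctrl, 4.75, 8.43 and 6.73 in si mH2A1.1 and 16.3, 24.4 and 32.4 in si mH2A1.2. Relative to Fbn1, Fbln5 was lower in all si mH2A1.1 libraries than in any other, while si Ctrl and si mH2A1.2 overlapped. Eln had 0.697, 0.636 and 0.784 per 1000 Fbn1 counts in si Ctrl, 4.00, 1.201 and 2.91 in si mH2A1.1 and 0.254, 0.249 and 0.251 in si mH2A1.2, so the 3 conditions did not overlap. These ratios fall where Fbn1 itself is high, as in si mH2A1.2. Fbln1 had 18.2 to 30.9 in si Ctrl, 20.0 to 65.7 in si mH2A1.1 and 7.08 to 12.3 in si mH2A1.2. Efemp2 had 54.7 to 66.7, 56.5 to 156 and 25.1 to 42.2 in the same order. For both, si mH2A1.2 lay below the other conditions, which overlapped. Mfap5 had 1.52 to 2.38 in si Ctrl and 2.61 to 3.11 in si mH2A1.2, and si mH2A1.1, at 1.60 to 3.09, overlapped with both. Emilin1 overlapped in all 3 conditions.

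**Figure D4:**
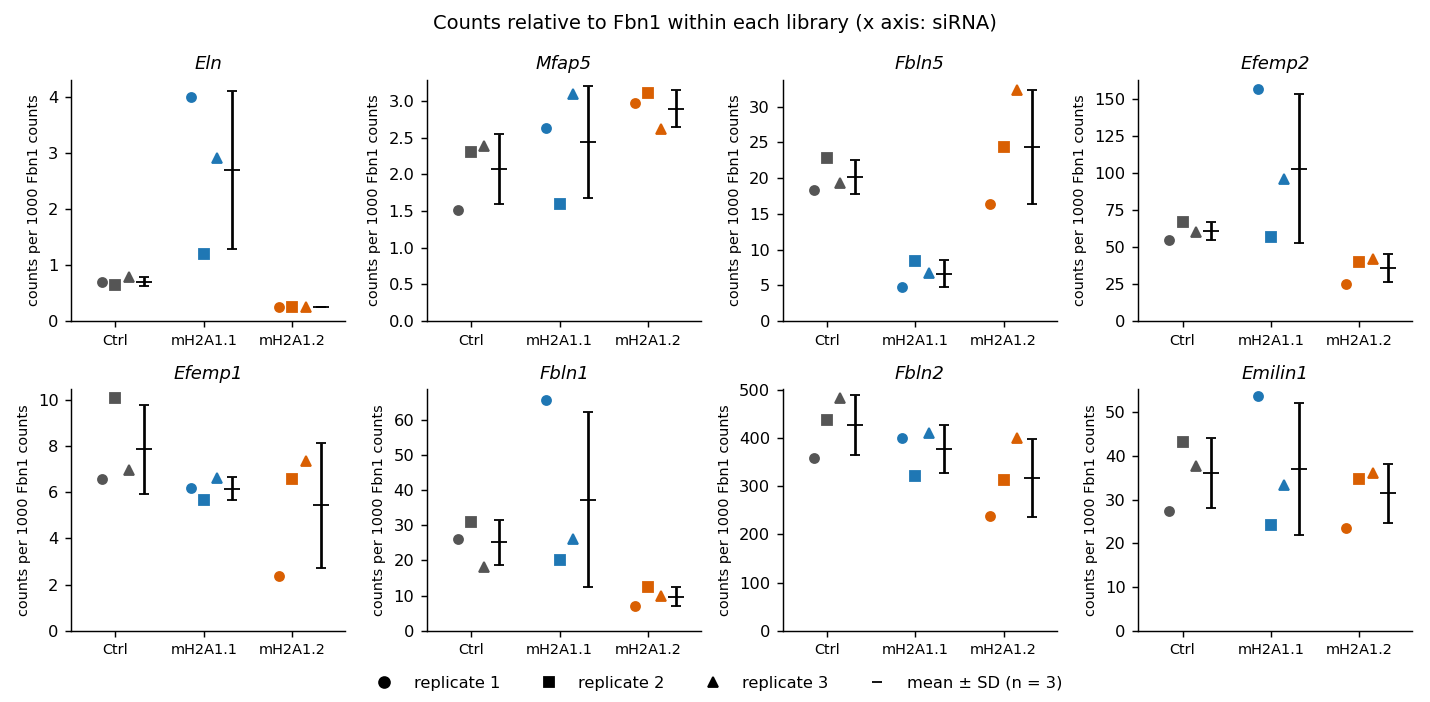
Counts per 1000 Fbn1 counts in the same library (y axis, linear from 0) for 8 genes, by siRNA (x axis), with the mean ± SD of 3. Fbln5 is lowest with si mH2A1.1 (4.75 to 8.43), and Eln is highest there (1.201 to 4.00).

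The genes whose log2 CPM followed Eln most closely over the 9 libraries, among those of at least 1 CPM on average, were Gm37435 (Pearson r = 0.986), Zfp710 (r = 0.981), Usp18 (r = 0.978), mt-Ts1 (r = 0.976) and Zfp668 (r = 0.974). The points share library and condition, and r is a description only. Usp18 was at a mean of 0.318 CPM in si Ctrl, 15.8 CPM in si mH2A1.1 and 0.282 CPM in si mH2A1.2, a far larger change than that of Eln.

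Between the knockdowns, the called genes among those that organize, cross-link and anchor the fiber were lower with si mH2A1.1. In the direct comparison, 4 of 4 latent TGF-beta binding proteins, 4 of 5 cross-linking enzymes, 5 of 8 ADAMTS and ADAMTS-like genes tied to microfibrils and 4 of 10 tested other microfibril genes were lower with si mH2A1.1, and none was higher. Over all tested genes, 10.5% were lower and 12% higher. Integrin subunits gave 4 lower of 8, TGF-beta ligands and targets 6 lower of 9, and elastin-degrading proteases 2 lower and 2 higher of 6 tested. The median direct log2 differences were -0.95, -1.17, -1.39, -0.30, -0.51, -0.96 and 0.16 in that order.

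Against si Ctrl the counts were smaller. With si mH2A1.1, 1 of 4 latent TGF-beta binding proteins, 0 of 5 cross-linking enzymes, 2 of 8 ADAMTS genes and 1 of 10 other microfibril genes were lower, and none was higher. Of integrin subunits 2 of 8 were lower, of TGF-beta genes 2 of 9 were lower and 1 higher, and of proteases 1 of 6 was lower and 1 higher. Over all tested genes 4.93% were lower and 6.18% higher. The list medians of the log2 fold change with si mH2A1.1 were -0.48, -0.49, -0.75, 0.20, -0.32, -0.74 and 0.25 in that order. The corresponding medians with si mH2A1.2 were 0.63, 0.63, 0.65, 0.98, 0.02, 0.43 and 0.37. With si mH2A1.2 no listed gene was lower. Higher were 2 of 4, 2 of 5, 2 of 8, 2 of 10, 2 of 8, 1 of 9 and 2 of 6 in the same order of lists, where 1.37% of all tested genes were higher and 0.982% lower.

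Ltbp2, a fibrillin-binding member of the latent TGF-beta binding family, rose with si mH2A1.2 by 1.99 ± 0.17 on the log2 scale (adjusted p = 0.00426). With si mH2A1.1, Ltbp2 had -0.56 ± 0.16 on that scale (adjusted p = 0.0532), and Ltbp1 fell by 0.57 ± 0.15 there (adjusted p = 0.0378). The elastin cross-linkers Lox, Loxl1 and Loxl3 had direct log2 differences of -1.71, -1.12 and -1.17. Loxl1, the enzyme that partners fibulin-5, rose with si mH2A1.2 (log2 0.63 ± 0.14, adjusted p = 0.0489), as did Loxl3 (0.86 ± 0.13, adjusted p = 0.0132).

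Among ADAMTS genes, Adamtsl3 fell with si mH2A1.1 (log2 -2.45 ± 0.34, adjusted p = 0.00418), as did Adamts10, a fibrillin-1 binding protease (log2 -0.91 ± 0.12, adjusted p = 0.00352). Adamts17 rose with si mH2A1.2 (log2 2.79 ± 0.52, adjusted p = 0.0280). Vcan, a proteoglycan that binds fibrillin-1, moved in both, with -0.81 ± 0.18 (adjusted p = 0.0209) and 1.197 ± 0.18 (adjusted p = 0.0136). Mfap2, a relative of Mfap5, and Mfap4 passed the test in the direct comparison, with log2 differences of -2.27 and -2.75. Both had few reads, 8 to 60 counts a library for Mfap2 and 14 to 207 for Mfap4. Against si Ctrl, si mH2A1.1 gave -0.72 (adjusted p = 0.322) for Mfap2 and -1.55 (adjusted p = 0.0611) for Mfap4. Itgb5 and Itgav, chains of an integrin that binds fibrillin and fibulin-5, had direct log2 differences of -1.29 and -0.93.

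Elastin-degrading proteases split. Mmp2, a gelatinase, had log2 fold changes of -0.88 ± 0.23 in si mH2A1.1 (adjusted p = 0.0350) and 1.08 ± 0.23 with si mH2A1.2 (adjusted p = 0.0404). Mmp12, macrophage elastase, rose with si mH2A1.1 by 2.02 ± 0.47 (adjusted p = 0.0258), as did Eln. The mean level of Mmp12 was 3.53 CPM there, with a wide SD of 2.48 over 3 libraries, and 0.870 CPM (SD 0.117) in si Ctrl. Of TGF-beta genes, Ccn2 and Skil were lower in the direct comparison by log2 -2.84 and -1.26. Against si Ctrl, Skil was called with si mH2A1.1 (log2 -0.58, adjusted p = 0.0378) and with si mH2A1.2 (log2 0.68, adjusted p = 0.0496). Ccn2 was called with neither (log2 -1.28, adjusted p = 0.0879, and log2 1.56, adjusted p = 0.110).

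**Figure D5:**
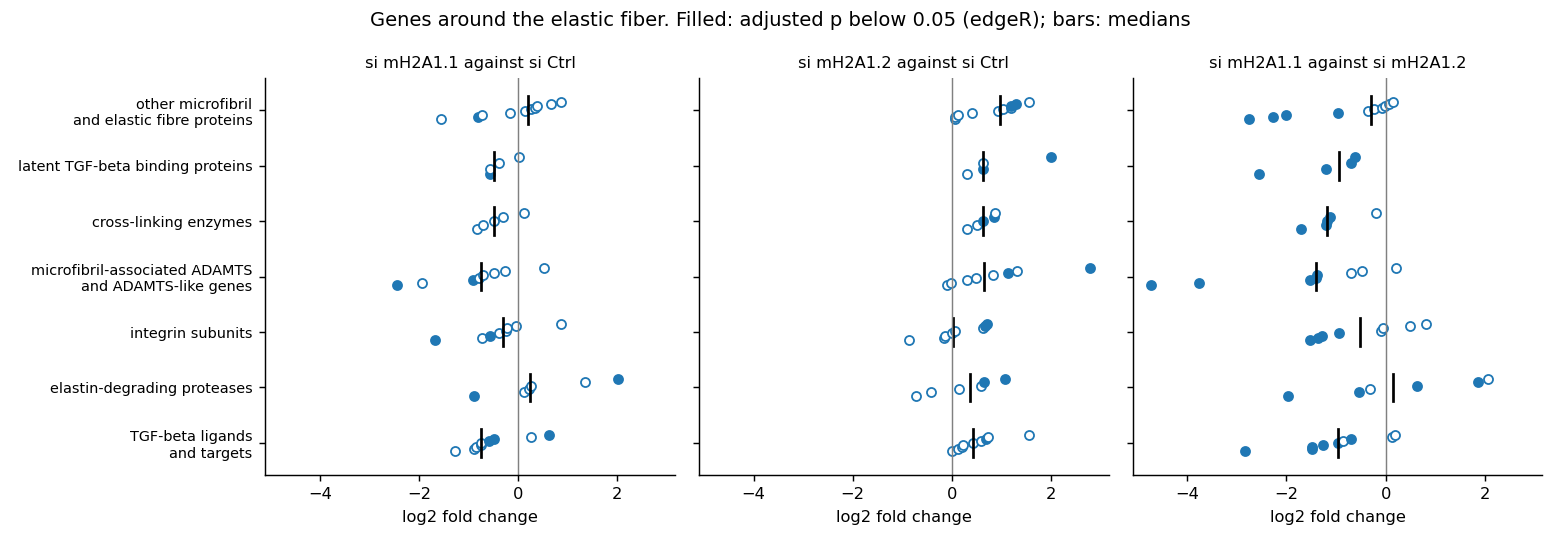
Log2 fold change (x axis) of the genes in 7 lists around the elastic fiber (y axis) in each comparison, with filled points at an adjusted p below 0.05 (edgeR) and bars at list medians. In the direct comparison, all 4 latent TGF-beta binding proteins are filled and below 0.

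Markers of other cells and states moved too. Myotube genes summed to 20920 to 31260 CPM in si Ctrl, 20990 to 24830 in si mH2A1.1 and 17620 to 22640 in si mH2A1.2. The highest means in si Ctrl were those of Ttn (8799 CPM), Myh3 (6781 CPM) and Acta1 (3621 CPM). Myh1, at means of 507, 1214 and 150 CPM in these conditions, was called in all 3 comparisons. In the direct comparison 2 of 14 were lower and 6 higher, where 10.5% of all tested genes were lower and 12% higher. Against si Ctrl, 3 were lower (Myog, Mymx and Actn2) and 1 higher (Myh1) with si mH2A1.1 (4.93% and 6.18% of all tested genes). With si mH2A1.2, 4 were lower (Myh1, Tnnt3, Des and Actn2) and none was higher (0.982% and 1.37%). All 7 proliferating myoblast genes were higher with si mH2A1.1 than with si mH2A1.2, and their sums were 445 to 853 CPM, 237 to 341 CPM and, in si Ctrl, 305 to 477 CPM. Against si Ctrl, none of these 7 was called with si mH2A1.1, and 1 was lower with si mH2A1.2. Fibroblast genes, several of which C2C12 cells also express, summed to 8446 to 9970 CPM in si Ctrl, 3830 to 6313 in si mH2A1.1 and 10380 to 14210 in si mH2A1.2. Most of this sum was 1 collagen gene, Col3a1, at means of 8596, 4112 and 11230 CPM in these conditions. Dpt (8.91, 3.83 and 29.7 CPM) and Pi16 (6.85, 3.52 and 22.2 CPM) had means in the same order. Lum (16.0, 2.41 and 11.2 CPM) was also lowest with si mH2A1.1 but highest in si Ctrl. Dcn and Pdgfra had their lowest mean in si Ctrl and their highest with si mH2A1.2. Ly6a (349, 476 and 271 CPM) was highest with si mH2A1.1. Of 8 tested fibroblast genes, 4 were lower and 1 higher in the direct comparison, and the fibroblast factor Tcf21 never exceeded 3 counts. Against si Ctrl, 2 of the 8 were lower with si mH2A1.1 and 1 was higher with si mH2A1.2. Smooth muscle genes summed to 2904 to 3955 CPM over all libraries, mostly Acta2 and Des, with 2 lower (Tagln and Cnn1) and 1 higher (Des, also a myotube gene) of 5 in the direct comparison. Tagln, at means of 53.3, 21.4 and 155 CPM in the same order of conditions, was called in all 3 comparisons, and Cnn1 was at 1.30, 0.931 and 6.05 CPM. Endothelial genes summed to at most 2.99 CPM. Macrophage genes summed to 2.86 to 4.05 CPM in si Ctrl, 6.10 to 11.5 in si mH2A1.1 and 3.44 to 3.63 in si mH2A1.2. This was nearly all Cd68 (means of 2.98, 9.14 and 3.02 CPM), while Ptprc and Csf1r were at or below 0.320 CPM on average in each condition and Adgre1 was never above 3 counts. In these bulk libraries, fewer cells of a type and less RNA per cell cannot be told apart, and the part of these markers in the results was not tested.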

How the data were processed

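mRNA of C2C12 cells was sequenced by the authors as single reads of 50 bp, and reads per gene were estimated with Salmon on mm10 per the labels. The deposited table holds expected counts (estimated counts given as whole numbers, no normalization). The other deposited file, these counts times 1 constant per sample, was not used. Gene names, positions and exon lengths came from GENCODE M21 (GRCm38), which names 52762 of the 52780 genes. The annotation release the authors used and the strand setting are not given in the sources used here.

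All 9 samples entered 1 edgeR 4.0.16 model (R 4.3.3; quasi-likelihood, legacy form, TMM, filterByExpr, no replicate term), with 3 contrasts and Benjamini-Hochberg adjustment over 19545 genes. Genes were called at an adjusted p below 0.05, and SE is the log2 fold change over the square root of F. The test was tested on simulated data. DESeq2 1.42.0, its size factors, a replicate block, other filters and omission of each sample were alternatives. Replicate numbers paired the samples for si mH2A1.2 against si Ctrl: deviations from condition means correlated at r = 0.196 to 0.331 within a number and -0.267 to 0.0358 between numbers. With the replicate number as a block, 1005 genes were called there in place of 460. Replicates differed beyond sampling noise.

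The genes, lists and tests were chosen with earlier results of these data known. All 10 genes are named, with up to 4 genes per list by lowest adjusted p in any contrast and the 5 genes most like Eln. For the marker lists, further genes are named. Per-length levels divide CPM by the union of exons. Promoters came from RefSeq (GRCm38.p6). Of the lists, Ctsv matched no gene, and Ctgf was matched as Ccn2. Other experiments of the study were not analysed here.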

Additional observations from a re-analysis of the deposited data

How the results depend on the processing

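Against si Ctrl the counts depended on the tool and the samples; the cause was not tested. For si mH2A1.1, 2171 genes were called, with 3354 by DESeq2, 4065 with the replicate number as a block, 352 under the stricter limits and 605 to 2928 when 1 library was left out. The 3 elastic fiber genes became 5, 5, 0 and 0 to 6. For si mH2A1.2, 460 genes became 1096 by DESeq2, 1005 with the replicate number as a block, 35 under the stricter limits and 74 to 544 without 1 library. The 3 genes became 5 by DESeq2, 5 with only the conditions compared, 4 with the block, 0 under the stricter limits and 0 to 6 without 1 library. Between the knockdowns, 4397 genes became 5674 with the block, 1247 under the stricter limits and 2251 to 4616 without 1 library, while 8 elastic fiber genes were called in each, except for 6 under the stricter limits. For both contrasts with si mH2A1.1, same-numbered samples correlated weakly (r = 0.0841 to 0.0976 against si Ctrl and 0.0917 to 0.116 against si mH2A1.2), though each correlated best with its own number. The library names in the labels also run in sequence within a number, but no source used here says what a number marks. With the block, Efemp1 (adjusted p = 0.0113) and Fbln2 (adjusted p = 0.0319) were added to the calls for si mH2A1.1 against si Ctrl, and Fbln5 for si mH2A1.2 against si Ctrl. It changed no other call of the 9 genes.

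Signs turned for Efemp2 with si mH2A1.1 against si Ctrl, to 0.0453 without si Ctrl replicate 2, 0.0057 without si mH2A1.1 replicate 2 and 0.01 without si mH2A1.1 replicate 3, in a range of -0.0557 to 0.0453 over the omissions. They turned for Fbln1 between the knockdowns, to 0.11 without si mH2A1.1 replicate 3 and 0.07 without si mH2A1.2 replicate 2, in a range of -0.2358 to 0.1144. With the longest transcript as length, levels in si Ctrl became 0.151 for Eln, 0.680 for Mfap5, 2.83 for Fbln5, 18.9 for Efemp2, 73.1 for Fbln2 and 7.66 CPM per kb for Emilin1, since that transcript is shorter than the union of exons. Of 144 recomputed log2 fold changes per comparison, 122 (si mH2A1.1) and 113 (the other knockdown) over si Ctrl and 142 between the knockdowns kept their direction and call. Depth limits Fbn2, with at most 6 counts a library, and Eln, with at most 64.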
